A study of Mus musculus with 35 samples.

Results

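The comparison described here set skin of 4 mice, biopsied 1 week after the left flank had been irradiated (radiated week 1), against skin of 3 sham mice that had received no radiation. These 7 libraries were taken by their labels, with no measured value involved, from the 35 bulk RNA libraries of the study. All mice were ten-week-old female C57BL/6J animals, an inbred laboratory strain. A dose of 25 Gy had been given at 3.6 Gy per min over 420 seconds, the irradiated flank had been shaved afterwards with an electric razor, and biopsies had been taken at the irradiated site. The study followed 16 irradiated mice for 4 weeks, 4 mice a week, and 3 sham mice. A further 16 samples were labelled control, 4 of them at week 1, and the labels do not give their body site. From the number of mice, 19, each control sample appears to come from an irradiated mouse. The labels do not say at which week or hour the sham skin was taken, or whether it was shaved, so that these conditions cannot be told apart from radiation in the comparison with sham. Nothing more is stated on the origin of the replicates than that the mice were divided into groups, and p-values measure the spread between these samples.

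Skin is a layered tissue. Basal keratinocytes divide and their daughters differentiate upward into the cornified barrier, while the dermis holds fibroblasts, vessels, nerves, immune cells, fat and a thin sheet of muscle. Hair follicles in the mouse cycle between growth (anagen), regression (catagen) and rest (telogen), and the matrix cells that build the shaft and the inner root sheath divide fast and are present only during growth. Ionizing radiation breaks DNA, activates p53 and stops or kills dividing cells, and in skin it is known for dermatitis and hair loss.

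Each of the 7 libraries held between 17362853 and 23210933 estimated counts. All of the marker genes used to check the tissue were detected in all 7 libraries except those of growing follicles, described below, and Krt5, a basal keratinocyte keratin, ranged from 2595 to 7637 CPM, a count scaled to the size of its library. No pair of libraries within a group differed by as little as sampling noise, with a lowest reduced chi-square of 21.6 over 15 pairs. Some libraries stood apart. Sham replicate 1 had a lower hair shaft keratin score, 3.47, than the other sham libraries, 6.80 and 7.00. Radiated replicate 1 had keratinocyte stress genes at the level of sham, and radiated replicate 2 had the lowest scores for collagen, fat, vessel and nerve genes of the 4 radiated libraries. A score is the mean log2 CPM over the genes of a list. The mitochondrial genome took 2.75%, 2.01% and 1.66% of counts in sham replicates 1 to 3 and 1.51%, 1.55%, 1.38% and 1.80% in radiated replicates 1 to 4. All 13 mitochondrial genes had fold changes below 0 (median log2 fold change -0.52), while 51.2% of all genes were above 0. None of them passed the threshold in edgeR's quasi-likelihood test and 1 did in DESeq2, with 5 lower at an unadjusted p under 0.05 beside 7.89% of all genes. The part of this in the results below was not tested.

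Of 18228 genes tested, 319 (1.75%) passed an adjusted p of 0.05 between radiated week 1 and sham skin. Of these, 220 (1.21%) were lower and 99 (0.543%) higher after radiation. The lower genes were led by the structural genes of the growing hair, with 64 of the 220 in the lists of shaft keratins, inner root sheath genes and keratin-associated proteins, and a further 17 in the lists of proliferation and histone genes. Among the higher genes, 17 of the 99 were immediate early or circadian clock genes. The count rested on few libraries. It was 1 without radiated replicate 3, 43 without radiated replicate 4, 57 without sham replicate 3, 124 without sham replicate 2 and 543 without sham replicate 1. Without radiated replicate 2 it was 469, with 237 higher and 232 lower, and without radiated replicate 1 it was 356, with 164 higher and 192 lower. DESeq2 gave 634 higher and 604 lower, so that the larger number of lower genes did not hold in every alternative. The gene that remained without radiated replicate 3 was Csrnp1, with an adjusted p of at most 0.0195 in every alternative tried. Of the genes followed through the alternatives that had passed and could be tested again, 130 of 131 lost the call without radiated replicate 3, 98 of 129 without radiated replicate 4, 91 of 131 without sham replicate 3 and 56 of 129 without sham replicate 2, and none changed direction. At an unadjusted p under 0.05, the tally was 3021 genes (16.6%) with all 7 libraries and 2394 without radiated replicate 3.

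**Figure D1:**
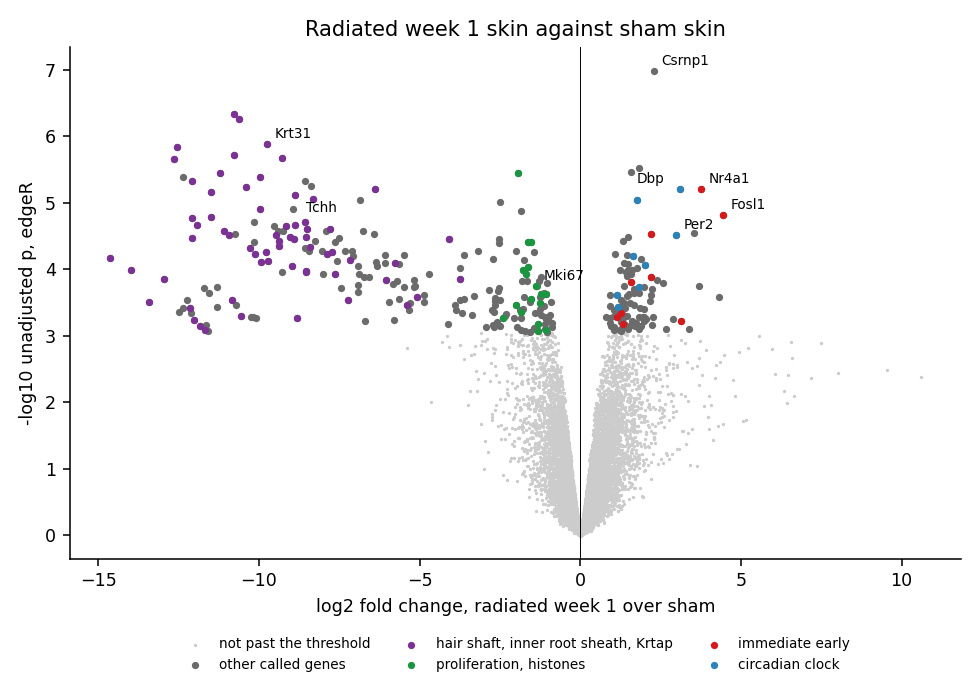
Log2 fold change of radiated week 1 over sham skin (horizontal axis) against the negative log10 of the unadjusted edgeR p (vertical axis) for the genes tested, 1 point a gene, with genes past an adjusted p of 0.05 in colour or dark grey by list. The 64 hair genes lie far to the left, while the immediate early and clock genes lie to the right between log2 fold changes of 1.13 and 4.43, and fitted changes of genes with no counts after radiation depend on the prior count.

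Genes of the hair shaft fell to or near 0 in all 4 radiated libraries. Krt31, a type I hair keratin, was at 22.8, 140 and 226 CPM in sham replicates 1 to 3 and at 0.256, 0.0539, 0.261 and 0 CPM in radiated replicates 1 to 4 (log2 fold change -9.74 ± 0.93 SE, adjusted p = 0.00498, edgeR). Krt86, a type II hair keratin, was at 63.1, 799 and 1051 CPM in sham and at 0.342, 0, 0.0435 and 0 CPM in radiated skin. The groups did not overlap for either gene, and sham replicate 1 was lowest in sham for both. All 15 shaft keratins tested fell (background 1.21%), with a median log2 fold change of -9.27 beside 0.01 over all genes tested, and the smallest decrease in the list was -3.75. Krt33b, Krt81 and Krt83 were, with Krt31 and Krt86, the 5 decreases with the smallest p among genes above a mean of 5 CPM. Krt83 stood at 50.6, 400.5 and 643 CPM in sham and at 0.128 to 0.304 CPM in radiated skin. Krt34 gave 11372 counts in the 3 sham libraries and 2 in the 4 radiated ones. The mean sham CPM divided by the CPM of the pooled radiated counts was 7905, with a 95% counting interval from 2188 to 65280. Without radiated replicate 3, none of the 15 passed although the median was -9.38, and 10 passed without sham replicate 3 or without radiated replicate 4. All 15 passed without sham replicate 1 (median -9.78) or radiated replicate 2 (-8.91), and 14 without radiated replicate 1 (-10.00).

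Keratin-associated proteins, which crosslink keratin filaments in the shaft, followed the same course. Of 58 genes in the table, 39 had enough counts to be tested and 38 of these fell, beside 1.21% of all genes. A gene can pass the filter on low counts through the sham libraries alone. With no such filter 51 of 57 fell, beside 359 of all genes. The median log2 fold change of the 39 was -10.29, or -9.36 with the 11 genes that had no counts after radiation set at their lower bound. Krtap7-1, the largest decrease, was at 12.6, 199 and 219 CPM in sham and at 0 in every radiated library. Against a floor of 3 counts per library it was at least 1042-fold lower. The same bound was 658-fold for Krtap14, 451-fold for Krtap4-9 and 329-fold for Krtap15. Gm11555, Gm11562 and Gm10229 lie inside the clusters of Krtap genes, and Gprc5d is an orphan receptor known from hair-forming keratinocytes. They were among the 10 largest decreases, with bounds of 239-fold for Gm11555, 216-fold for Gm10229 and 198-fold for Gprc5d, and a single radiated count for Gm11562. Without radiated replicate 3, 0 of the Krtap genes passed, without radiated replicate 4 it was 5, and without sham replicate 3 it was 15. Without radiated replicate 2, 38 passed, without sham replicate 1, 39, and without radiated replicate 1, 32, while the medians stayed between -10.86 and -9.35 in all leave-one-out fits. Many of these genes and keratins are close copies of each other, so the split of reads among neighbours is uncertain.

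The hair genes lie in a few gene clusters, and decreases were found in each. On the GRCm38 build with GENCODE M21 annotation, 9 type I shaft keratins lie between 99514114 and 100105626 on chromosome 11, where all 9 fell with a median of -7.62. The 6 type II shaft keratins lie between 101431038 and 101550667 on chromosome 15, with a median of -10.02. Krtap genes fell in 16 of 17 tested in the cluster between 99550130 and 99993994 on chromosome 11, and in 15 of 15 in that between 88610705 and 89571183 on chromosome 16. The 3 tested on chromosome 10, the 2 on chromosome 1 and the 2 on chromosome 7 fell as well. There are 23, 24 and 5 Krtap genes on chromosomes 11, 16 and 7, and those not tested had too few counts. Genes of the hair lists could pass the filter on low counts through the sham libraries alone, and 1.21% of all genes fell.

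Inner root sheath genes, which encode the sleeve that moulds the growing shaft, fell in 11 of 13 cases (background 1.21%) with a median of -8.53. Tchh (trichohyalin), a matrix protein of the inner root sheath, was at 1304, 19670 and 24260 CPM in sham and at 64.2, 26.9, 22.4 and 14.9 CPM in radiated skin (log2 fold change -8.89 ± 1.04, adjusted p = 0.00601). Krt71, an inner root sheath keratin, was at 500, 4967 and 5147 CPM in sham and at 29.8, 0.432, 1.17 and 0.218 CPM in radiated skin (-8.81 ± 1.75, adjusted p = 0.0383). The Krt71 value was -12.50 without radiated replicate 1, and its call was lost in the fit over all 35 libraries and without radiated replicate 3 or 4 or sham replicate 2 or 3. Radiated replicate 1 kept the highest level of both, still below all sham libraries. The exceptions were Gata3, also expressed outside the sheath, at -0.99 (adjusted p = 0.0529) and Tgm3, also an enzyme of the epidermal barrier, at 7.99, 20.7 and 53.3 CPM in sham and 6.79 to 61.1 CPM in radiated skin. Gata3 passed in 4 of 13 alternatives. With total-count scaling, no filter or DESeq2, 12 of the list fell, beside 230, 359 and 604 of all genes. The list had 0 genes past the threshold without radiated replicate 3, 4 without radiated replicate 4 and 5 without sham replicate 3, while 11 passed without sham replicate 1 or radiated replicate 2 and 12 without radiated replicate 1.

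Regulators of the hair matrix and papilla fell less than the structural genes. Of 21 tested, 8 fell and none rose, and the median was -0.99. Of all genes, 1.21% fell, which also stands behind the like counts below. The 8 regulators that fell were the transcription factors Hoxc13 (-3.18), Msx2 (-2.85), Foxn1 (-2.66), Dlx3 (-2.66) and Lef1 (-2.49), the signals Shh (-2.75) and Fgf5 (-2.93), and the desmosomal cadherin Dsg4 (-5.48). Hoxc13, which drives hair keratin transcription, was at 22.2, 85.6 and 79.0 CPM in sham and at 7.26, 3.62, 9.87 and 6.99 CPM in radiated skin. Every radiated library was below every sham library for this gene. Shh, made by the growing matrix, was at 9.71, 6.50 and 23.6 CPM in sham and between 1.13 and 3.63 CPM after radiation. None of the list passed without radiated replicate 3, radiated replicate 4 or sham replicate 3, 3 passed without sham replicate 2, 4 without radiated replicate 1 and 5 without radiated replicate 2. Among 18 genes of follicle stem cells, 2 fell, Krt75 of the companion layer (-1.84) and the quiescence factor Foxc1 (-1.23), with a list median of -0.45, and both calls were lost without radiated replicate 1, 3 or 4 or sham replicate 2 or 3. Of 14 melanocyte genes tested, 1 fell, Slc24a5 (-2.68), an exchanger of melanosomes, which did not pass without any 1 radiated library or sham replicate 3. The melanocyte median was -1.21, and 8 were lower at an unadjusted p under 0.05 against a background of 7.89%. Without sham replicate 3 the median was -0.37. Sham replicate 3 was highest for the melanosome genes Tyrp1, at 6.93, 1.91 and 40.6 CPM in sham, and Pmel, at 7.20, 3.99 and 30.5 CPM. In bulk skin, fewer cells of a type and less RNA per cell cannot be told apart.

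**Figure D2:**
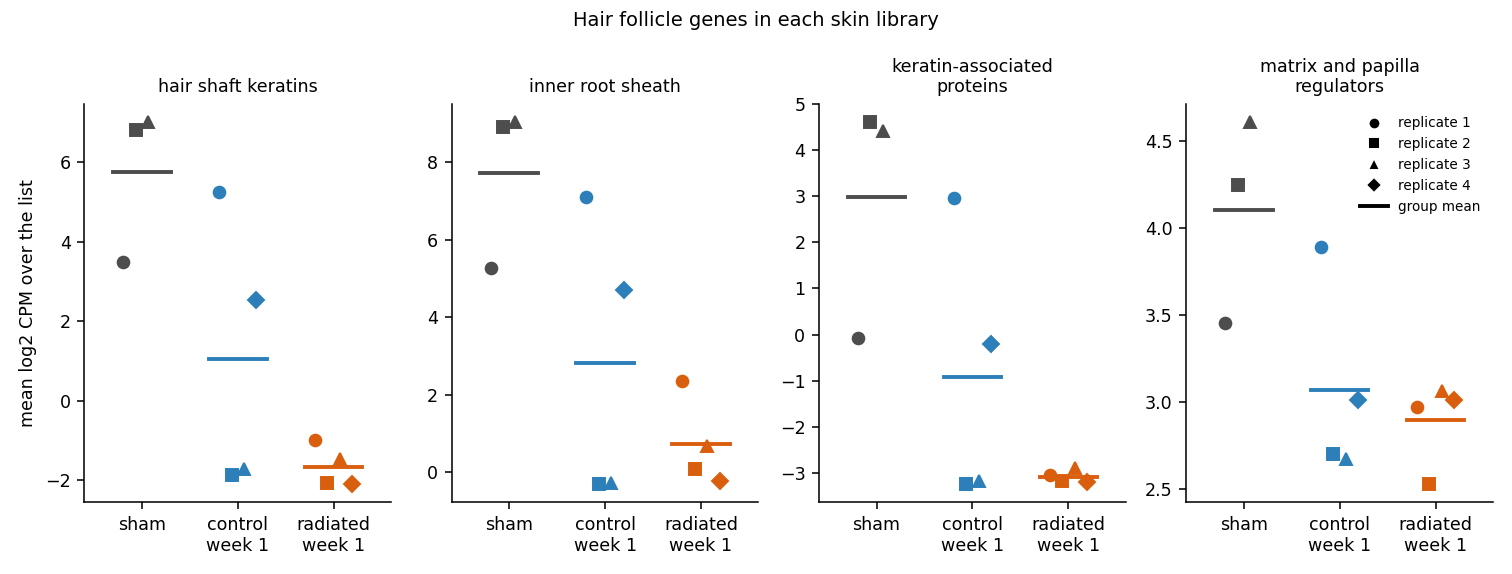
Mean log2 CPM over the genes of 4 hair lists (vertical axis) in each library of sham, control week 1 and radiated week 1 skin, 1 point a library, with the group mean as a bar. All radiated libraries lie below all sham libraries in the 4 panels, and control replicate 1 lies among or near the sham libraries (shaft keratin score 5.26, sham 3.47 to 7.00).

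Control skin of the same week differed among mice in the same genes. Krt31 was at 65.4, 0.285, 0.191 and 5.42 CPM in control replicates 1 to 4, and Tchh at 4220, 17.1, 16.1 and 878 CPM. Control replicates 2 and 3 were thus at the level of the radiated libraries, replicate 4 was above them and replicate 1 was within the range of sham. In control week 1 against sham, none of the shaft keratins passed (median -2.85) and none of the inner root sheath genes (median -3.20). Radiated against control skin gave a log2 fold change of -5.31 ± 1.53 for Tchh (adjusted p = 0.229), of -5.84 ± 2.23 for Krt71 (adjusted p = 0.291) and of -2.01 ± 0.49 for Krt32 (adjusted p = 0.19). In that comparison 10 of the 15 shaft keratins had counts in too few libraries to be tested.

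Proliferation genes included 4 decreases among 28 tested, beside 1.21% of all genes. Another 12 were lower at an unadjusted p under 0.05, which makes 16 beside 7.89% of all genes, none was higher, and the median was -0.85. Mki67, a protein of dividing nuclei, was at 216, 175 and 344 CPM in sham and at 105, 92.1, 102 and 83.7 CPM in radiated skin (-1.37 ± 0.23, adjusted p = 0.0216). All radiated libraries were below all sham libraries. The other 3 were Cenpf of the kinetochore (-1.54), the spindle factor Tpx2 (-1.32) and the topoisomerase Top2a (-1.26). Replication-dependent histone genes, a list chosen after its values were seen, had 13 of 51 that fell and a median of -1.30. H2bc18, the histone gene with the smallest p, was at 35.1, 27.3 and 40.6 CPM in sham and between 7.98 and 9.79 CPM in radiated skin. Lmnb1, the nuclear lamina protein that senescent cells lose, fell by 1.46 on the log2 scale, and Lbr, its receptor in the nuclear membrane, chosen after its value was seen, fell by 0.92. Mki67 was at 120, 65.8, 77.6 and 83.7 CPM in control week 1, and radiated against control gave 0.15 ± 0.18 (adjusted p = 0.721). In control against sham, 11 of the 28 proliferation genes fell (median -1.26, background 1.65%), and in radiated against control the median was 0.27 with none past the threshold. The 4 calls and that of Lmnb1 were lost without radiated replicate 3, radiated replicate 4 or sham replicate 3, those of Tpx2 and Top2a also without radiated replicate 1, and no gene of the proliferation list passed in a fit over all 35 libraries. That of Lbr was lost without radiated replicate 3 or 4 or sham replicate 2 or 3, and that of H2bc18 without radiated replicate 3. The proliferation score was 4.28, 3.90 and 4.76 in sham and 3.50, 3.83, 3.64 and 3.47 in radiated skin, beside a hair matrix score of 3.46 to 4.61 in sham and 2.53 to 3.06 in radiated skin. The part of the hair matrix in this result was not tested.

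Immediate early genes, transcribed within minutes of growth factors, stress or injury, included 9 increases among 22 tested (background 0.543%). None fell, 17 were higher at an unadjusted p under 0.05 (background 8.68%), 13 were above sham in every radiated library (background 6.97%), and the median log2 fold change was 1.39. Nr4a1, an orphan nuclear receptor, was at 30.1, 19.6 and 9.81 CPM in sham and at 403, 186, 208 and 281 CPM in radiated skin (3.76 ± 0.43, adjusted p = 0.00537). Fosl1, an AP-1 subunit, was at 1.94, 2.47 and 0.981 CPM in sham and at 15.6, 72.2, 36.8 and 32.7 CPM in radiated skin (4.43 ± 0.56, adjusted p = 0.00895). For both, every radiated library was far above every sham library. The other 7 were the stress transcription factor Atf3 (3.13), the Nr4a1 relatives Nr4a3 (2.21) and Nr4a2 (2.19), the AP-1 subunits Jund (1.33) and Junb (1.25), the mRNA decay factor Zfp36 (1.57) and the epithelial factor Klf4 (1.13). Fosb was at 223, 234 and 8.41 CPM in sham and at 540.5 to 1562 CPM in radiated skin, and did not pass (2.62, adjusted p = 0.171). Fos overlapped between the groups. Egr1, with 1.54, did not pass either (adjusted p = 0.144), though it did in 1 of 13 alternatives. DESeq2 called 15 of the 22 listed genes higher, beside 634 of all genes. Sham replicate 3 had the lowest list score, 4.91 beside 5.75 and 5.91, and the radiated libraries lay between 6.94 and 7.52. Without radiated replicate 3, 0 of the 9 passed, without sham replicate 3 it was 3, without radiated replicate 4 it was 4 and without sham replicate 2 it was 5, while the list had 7 without sham replicate 1, 9 without radiated replicate 1 and 11 without radiated replicate 2.

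Csrnp1, a nuclear protein known as a gene induced by axin, which lies between 119971163 and 119984658 on chromosome 9, had the smallest p of all genes. It was at 17.2, 19.6 and 16.4 CPM in sham and at 82.8, 94.7, 82.6 and 90.0 CPM in radiated skin (2.29 ± 0.17, adjusted p = 0.00188). Its spread within each group was small, with an SD of 1.65 CPM in sham (n = 3) and 5.87 CPM in radiated skin (n = 4). Next by p among the higher genes above 5 CPM were Sik1, a kinase induced by cyclic AMP (1.84, adjusted p = 0.0053), and Pim3, a survival kinase (1.58, adjusted p = 0.0053). Sik1 stood at 162, 168 and 123 CPM in sham and between 480 and 602 CPM in radiated skin. Socs3, an inhibitor of cytokine receptors (1.90), and Nfkbia, an inhibitor of NF-kappaB (1.47), both chosen after their values were seen, rose as well. Sik1 and Pim3 lost the call only without radiated replicate 3, and Socs3 and Nfkbia also without radiated replicate 4 or sham replicate 3, Socs3 besides without sham replicate 2 and in a fit over all 35 libraries.

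**Figure D3:**
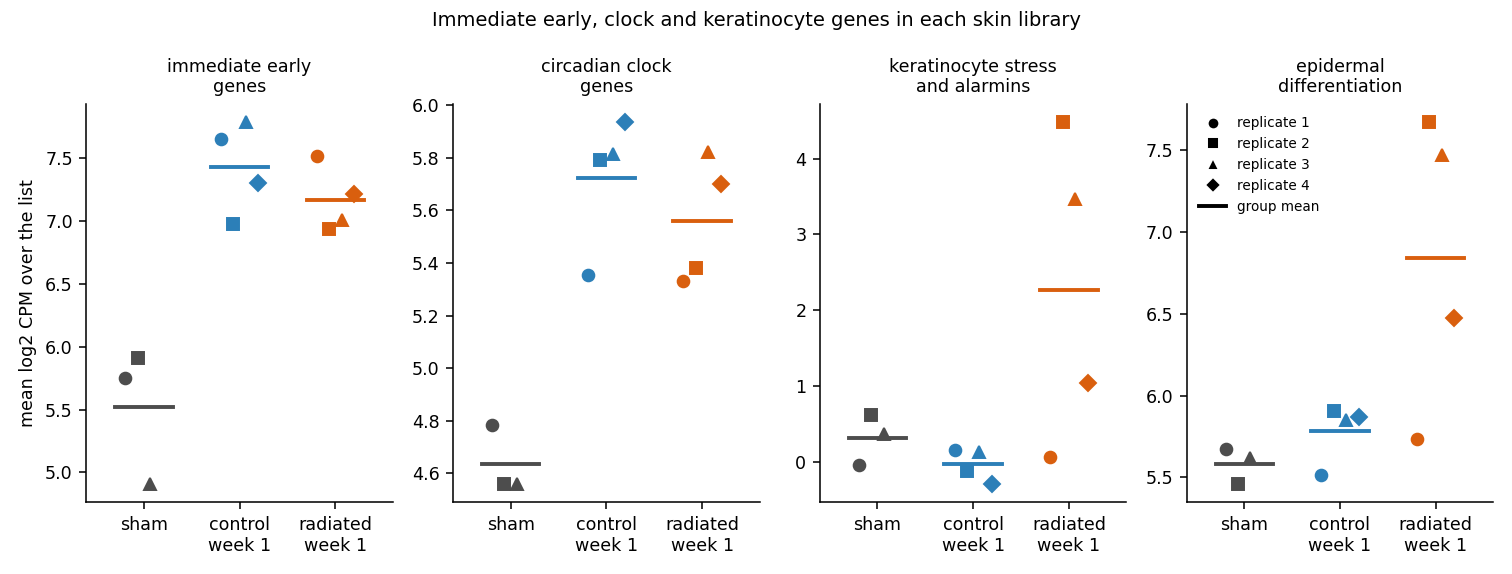
Mean log2 CPM over 4 gene lists (vertical axis) in each library of sham, control week 1 and radiated week 1 skin, 1 point a library, with the group mean as a bar. Immediate early and clock scores of all radiated and control libraries lie above all sham libraries, while the stress and differentiation scores are high in radiated replicates 2 and 3 (stress 4.48 and 3.47) and near sham in replicate 1 (0.06).

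Circadian clock genes formed the other group of increases. The clock of each cell runs on a loop in which the activators Bmal1 (Arntl) and Clock or Npas2 bind E-boxes and drive Per, Cry and Nr1d genes, whose products repress them, while Dbp and Tef act at D-boxes. Of 18 tested, 8 rose (background 0.543%), none fell, and the median was 1.16. DESeq2 called 10 higher and 0 lower, beside 634 and 604 of all genes. The fit over all 35 libraries called 10 higher and 1 lower, beside 470 and 754 of all genes. Dbp was at 8.43, 4.42 and 5.06 CPM in sham and at 37.9, 35.7, 74.7 and 56.8 CPM in radiated skin (3.09 ± 0.35, adjusted p = 0.00537). Per2, a repressor, was at 3.88, 3.77 and 5.21 CPM in sham and at 14.4, 31.7, 50.0 and 40.0 CPM in radiated skin (2.97 ± 0.41, adjusted p = 0.0106). Per1 was at 98.1, 103 and 96.9 CPM in sham and at 261, 282, 641 and 436 CPM in radiated skin (2.01 ± 0.31, adjusted p = 0.0146). The groups did not overlap for any of these 3 genes. The other 5 were Nr1d1 (1.84), a repressor of Arntl, Cry2 (1.77), Bhlhe40 (1.64), Tef (1.18) and Per3 (1.15). The activators did not pass in the main fit, while Npas2 passed in 1 of 13 alternatives. Clock was at -0.02 (adjusted p = 0.974), with overlapping groups. Arntl was at 45.3, 44.9 and 31.2 CPM in sham and at 30.7, 26.3, 26.2 and 18.4 CPM in radiated skin (-0.68, adjusted p = 0.171), and Npas2 had a log2 fold change of -0.97 (adjusted p = 0.169). Neither Arntl nor Npas2 overlapped between the groups, as was the case for 7.89% of all genes in that direction. Without radiated replicate 3, 0 clock genes passed, without sham replicate 3 or radiated replicate 4 it was 2, and without sham replicate 2 it was 3, while 9 passed without sham replicate 1 or radiated replicate 1 and 8 without radiated replicate 2.

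Promoters of these genes are shown because the members moved together and the clock acts through short DNA motifs. The sequences are the 250 bases before a start of transcription in RefSeq on GRCm38.p6, read along the strand of the gene, with the motif found in capitals. They are Per1 at chr11:69098699-69098948 on the plus strand and Tef at chr15:81802423-81802672 on the plus strand with an E-box, Per3 at chr4:151044666-151044915 on the minus strand with D-boxes, and the immediate early gene Nr4a1 at chr15:101266596-101266845 on the plus strand with CRE-like sites.
Per1: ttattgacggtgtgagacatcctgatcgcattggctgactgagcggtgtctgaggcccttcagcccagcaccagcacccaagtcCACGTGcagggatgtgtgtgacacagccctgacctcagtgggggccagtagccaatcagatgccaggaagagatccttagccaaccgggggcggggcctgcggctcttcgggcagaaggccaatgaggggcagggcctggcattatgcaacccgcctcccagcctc
Tef: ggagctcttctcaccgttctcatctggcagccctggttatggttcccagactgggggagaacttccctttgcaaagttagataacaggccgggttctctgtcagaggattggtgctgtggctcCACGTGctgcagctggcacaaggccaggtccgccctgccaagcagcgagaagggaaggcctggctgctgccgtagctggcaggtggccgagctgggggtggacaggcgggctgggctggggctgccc
Per3: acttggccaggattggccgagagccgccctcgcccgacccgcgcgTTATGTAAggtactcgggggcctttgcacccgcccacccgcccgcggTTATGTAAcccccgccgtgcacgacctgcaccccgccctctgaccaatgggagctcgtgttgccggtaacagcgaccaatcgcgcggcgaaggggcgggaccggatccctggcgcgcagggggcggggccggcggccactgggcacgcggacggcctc
Nr4a1: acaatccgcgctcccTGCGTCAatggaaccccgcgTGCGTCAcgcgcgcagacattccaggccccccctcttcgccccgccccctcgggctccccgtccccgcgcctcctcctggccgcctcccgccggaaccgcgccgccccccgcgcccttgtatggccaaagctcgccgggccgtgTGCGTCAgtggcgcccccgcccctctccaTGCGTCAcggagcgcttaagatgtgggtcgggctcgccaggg

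The E-box of Per1 begins 166 bases before the start and that of Tef 127 bases before it, the D-boxes of Per3 begin 205 and 158 bases before it, and the 4 CRE-like sites of Nr4a1 begin 235, 215, 71 and 42 bases before it. On either strand, the E-box (CACGTG) occurred in 2 of the 6 matched clock genes that rose, 33.3%, and in 5 of 15 matched genes of the whole clock list, also 33.3%, beside 6.86% of the promoters of 27025 genes in the table. The D-box (TTATGTAA) occurred in 1 of the 6, 16.7%, beside 0.977%. Of the 9 immediate early genes that rose, 8 had a promoter in the table, and the CRE-like site (TGCGTCA), a motif added after the promoter of Nr4a1 was seen, occurred in 1 of the 8, which is Nr4a1 itself, and in 2% of all. This site also occurred in 2 of 17 matched genes of the whole immediate early list, 11.8%. It was in 1 of the 6 clock genes that rose, 16.7%, and in 4 of 73 matched genes that rose, 5.48%. The full CRE (TGACGTCA) and the AP-1 site (TGACTCA) occurred in none of the 8. The CRE occurred in 2 of 17 matched genes of the whole immediate early list, 11.8%, and in 4 of 73 matched genes that rose, 5.48%, beside 1.77% of all. The AP-1 site occurred in 0 of the 17 and in 3 of the 73, 4.11%, beside 5.16% of all. None of these motifs contains another. Over all genes that rose, the E-box occurred in 5 of 73 matched genes, 6.85%.

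**Figure D4:**
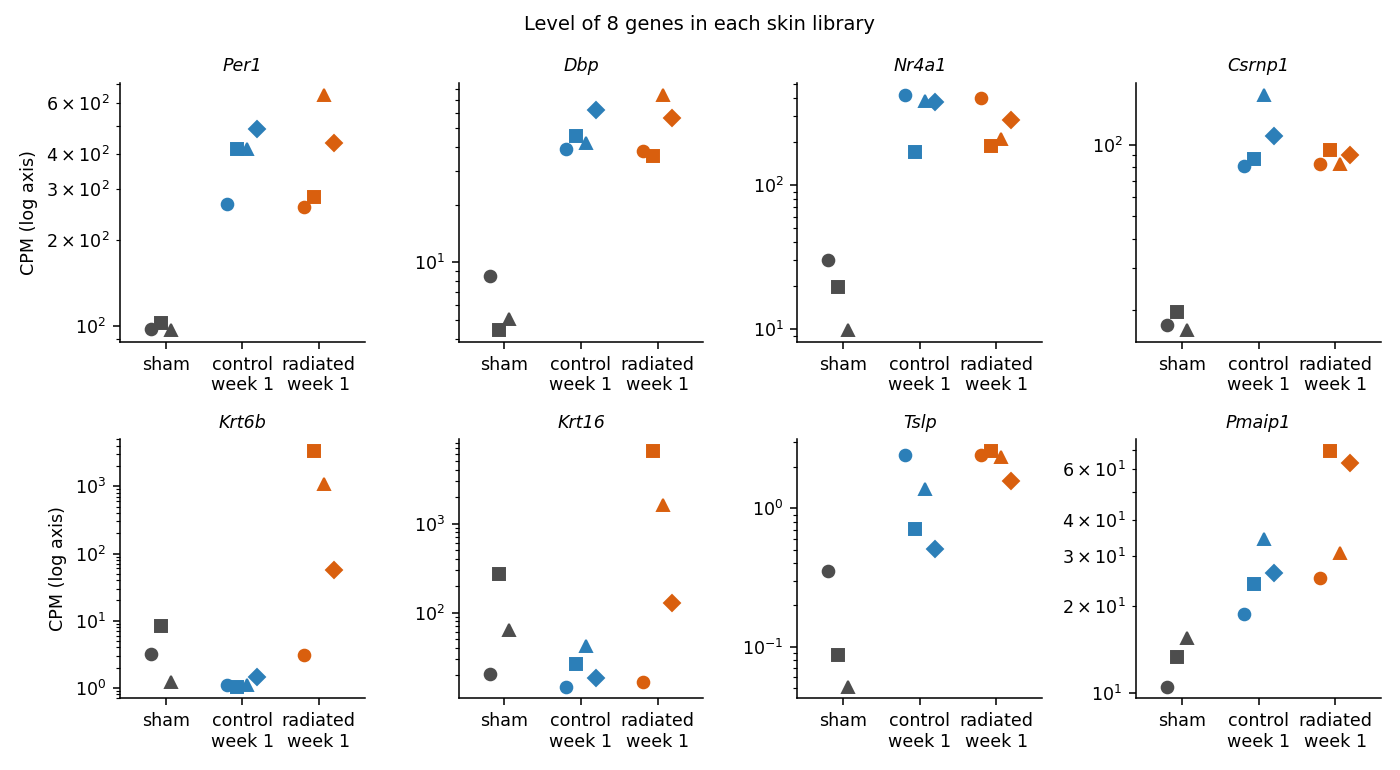
CPM of 8 genes on a log axis in each library of sham, control week 1 and radiated week 1 skin, 1 point a library, with replicates 1 to 4 as circle, square, triangle and diamond. Per1, Dbp, Nr4a1 and Csrnp1 separate sham from both other groups, Krt6b and Krt16 are high in radiated replicates 2 and 3, and Pmaip1 reaches 69.4 CPM in radiated replicate 2.

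Both groups of genes had like values in control skin. Nr4a1 was at 423, 169, 381 and 380 CPM in control replicates 1 to 4, Csrnp1 at 81.3, 87.2, 162 and 108 CPM, and Dbp at 38.8, 45.8, 41.9 and 62.1 CPM. Radiated against control skin gave a log2 fold change of -0.32 ± 0.30 for Nr4a1 (adjusted p = 0.631), -0.32 ± 0.20 for Csrnp1 (adjusted p = 0.478) and 0.13 ± 0.25 for Dbp (adjusted p = 0.828). Over the lists, the median of radiated against control was -0.21 for immediate early genes and -0.09 for clock genes, with none past the threshold, and that of control against sham was 1.60 and 1.15. Control against sham, which shares the sham libraries with the comparison above, had 11 immediate early and 9 clock genes that rose (background 3.28%). At later weeks, the mean level of Dbp was 43.9 CPM in radiated and 50.3 CPM in control skin at week 2, 4.81 and 6.94 CPM at week 3 and 3.47 and 7.60 CPM at week 4. The sham mean was 5.97 CPM. The mean level of Nr4a1 was 225 CPM in radiated and 127 CPM in control skin at week 2, 111 and 101 CPM at week 3 and 66.9 and 129 CPM at week 4, beside 19.8 CPM in sham. The mean score of immediate early genes was 7.14 in radiated and 6.51 in control skin at week 2, 6.50 and 6.93 at week 3 and 5.99 and 7.08 at week 4, beside 5.52 in sham.

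Single genes outside the immediate early and clock lists rose as well. Ptgs2, the inducible cyclooxygenase, rose by 2.57 (adjusted p = 0.0204) from 2.69 to 5.25 CPM in sham to 10.6 to 33.1 CPM. The keratinocyte cytokine Tslp was at 0.353, 0.0867 and 0.0516 CPM in sham and at 2.43, 2.59, 2.35 and 1.57 CPM in radiated skin (3.69 ± 0.63, adjusted p = 0.0216). Its receptor subunit Crlf2, chosen after its value was seen, rose by 2.23 (adjusted p = 0.0222). Il1b, an inflammatory cytokine, was at 0.750, 0.997 and 0.258 CPM in sham and at 5.85, 6.04, 1.96 and 3.67 CPM in radiated skin (2.68, adjusted p = 0.0473). The growth factor Hbegf rose by 2.26 and the gel-forming mucin Muc5b by 2.39. None of these 6 genes overlapped between radiated and sham skin, as was the case for 6.97% of all genes in that direction. All 6 lost the call without radiated replicate 3, radiated replicate 4 or sham replicate 3, all but Hbegf without sham replicate 2, and Hbegf without sham replicate 1. Il1b lost it without any 1 of the 7 libraries and in the fit over all 35. In control skin, Il1b was at 9.72, 3.13, 9.59 and 0.799 CPM and Tslp at 2.42, 0.712, 1.38 and 0.504 CPM. Neither passed between radiated and control skin (adjusted p = 0.785 and 0.426). Control skin had Ptgs2 at 13.8, 16.9, 40.2 and 14.4 CPM, Hbegf at 50.0, 51.7, 108 and 75.8 CPM and Muc5b at 4.23 to 4.88 CPM. In control against sham, all 3 rose in edgeR, by 2.49 (adjusted p = 0.0331), 2.19 (0.035) and 1.59 (0.0397). Radiated against control gave 0.07, 0.08 and 0.81 for these 3 genes, with none past the threshold.

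Immune cell lists had mostly positive values and few genes past the threshold. Of all genes, 0.543% rose against sham in the main edgeR fit and 634 rose and 604 fell in DESeq2. The fit over all 35 libraries had 470 that rose, no filter 202 and the fit without radiated replicate 2 had 237. These figures stand behind the like counts in this paragraph. Among 22 macrophage genes, 1 rose, Cd14, the endotoxin coreceptor, at 2.83, 2.73 and 3.72 CPM in sham and 16.7, 6.96, 11.5 and 13.7 CPM in radiated skin (1.97, adjusted p = 0.0218). The median of that list was 0.91, and 12 were higher at an unadjusted p under 0.05 beside 8.68% of all genes, the share that also stands behind the like counts below. Complement genes had none of 20 past the threshold in edgeR, 10 in DESeq2 and 4 in the fit over all 35 libraries or with no filter, with 14 higher at an unadjusted p under 0.05 and a median of 1.09. DESeq2 called 9 macrophage genes higher and 1 lower. Without radiated replicate 2, which had the lowest macrophage score of the radiated group, 3.64 beside 4.46 to 4.84, 9 macrophage genes and 9 complement genes passed. Single genes rose among neutrophil and monocyte genes (Csf3r, the G-CSF receptor, 1.89, 1 of 11), Langerhans and dendritic cell genes (Clec10a, a lectin, 1.46, 1 of 17) and mast cell genes (Hdc, which makes histamine, 1.60, 1 of 10). These calls and that of Cd14 were lost without radiated replicate 3 or 4 or sham replicate 2 or 3, those of Csf3r and Clec10a also in the fit over all 35 libraries, and that of Csf3r without radiated replicate 1 or with total-count scaling. None of 24 T cell genes (median 0.39), 30 chemokines (0.53) or 33 interferon-stimulated genes (0.64) passed in the main edgeR fit, with 5, 12 and 8 higher at an unadjusted p under 0.05. In DESeq2, 3 T cell genes, 3 chemokines and 0 interferon-stimulated genes passed, all of them higher. The fit over all 35 libraries had 2 T cell genes and 1 chemokine higher. Without sham replicate 1, 1 interferon-stimulated gene was higher, beside 114 of all genes. In control against sham, 10 of 20 complement genes (median 1.04), 2 of 22 macrophage genes (0.60) and 1 of 10 mast cell genes (0.89) rose, beside 3.28% of all genes. Radiated against control gave medians of 0.15, 0.36 and -0.09 for these lists, with none past the threshold. Interferon-stimulated genes had a median of -0.11 in control against sham. Against control skin, the interferon-stimulated genes had a median of 0.74 with 21 of 33 higher at an unadjusted p under 0.05 (background 7.05%) and none past the threshold. Their sham scores of 3.69, 2.41 and 3.11 spanned more than the radiated ones, 3.54 to 4.14.

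Keratinocyte stress genes differed widely among the irradiated mice. Krt6b, a keratin induced by wounding, was at 3.13, 8.41 and 1.24 CPM in sham and at 3.07, 3349, 1098 and 56.8 CPM in radiated replicates 1 to 4. Krt16, its usual partner in stressed epidermis, was at 20.5, 271 and 63.2 CPM in sham and at 16.7, 6484, 1616 and 130 CPM in radiated skin. Replicates 2 and 3 were above all sham libraries for both genes. Replicate 4 was above sham for Krt6b and within the sham range for Krt16, and replicate 1 was within the range for Krt6b and below it for Krt16. Neither passed (Krt6b 8.03 ± 2.11, adjusted p = 0.096, Krt16 4.12 ± 1.71, adjusted p = 0.265), nor did Krt6a (1.70, adjusted p = 0.461) or S100a8 (4.01, adjusted p = 0.224), all in edgeR. Krt6b passed in DESeq2 (adjusted p = 0.000189), in the fit over all 35 libraries (0.025), with no filter (0.0425) and without radiated replicate 1 (0.0295), and the other 3 passed in no alternative that gave a value. S100a8, a subunit of calprotectin, reached 16.8 CPM in replicate 2 and 5.05 CPM in replicate 3, while all sham libraries were at 0.441 CPM or less. Sprr1b, a cornified envelope precursor, was at 0.299, 94.6, 102 and 3.01 CPM in radiated skin and at 0.706, 1.26 and 4.85 CPM in sham. Of 24 genes of this list tested, 3 rose (Tslp, Il1b and Hbegf), S100a7a fell by 5.65, and the median was 3.22, or 1.91 without radiated replicate 2. These 24 are the genes of 36 in the table that passed the filter on low counts, which a gene can pass through the radiated libraries alone. The score over 34 keratinocyte stress and alarmin genes was 2.26 ± 2.06 (SD, n = 4) in radiated skin and 0.312 ± 0.337 (SD, n = 3) in sham. Without radiated replicate 1 or with no filter, 8 of the list rose, with DESeq2 10, in the fit over all 35 libraries 9, 1 rose without sham replicate 1 or sham replicate 2, 2 without radiated replicate 2, and none did without radiated replicate 3, radiated replicate 4 or sham replicate 3. Of all genes, 0.543% rose in the main fit. The total was 164 without radiated replicate 1, 202 with no filter, 634 in DESeq2 and 470 over all 35 libraries. Control libraries had Krt6b between 1.04 and 1.43 CPM. Radiated against control gave 9.91 ± 1.84 for Krt6b (adjusted p = 0.171), and 17 genes of the list could be tested there, with a median of 1.39 over these 17 and 10 higher at an unadjusted p under 0.05 (background 7.05%). Over later weeks, the mean level of Krt6b in radiated skin was 764 CPM at week 2, 1880 CPM at week 3 and 2548 CPM at week 4, beside 6.12 CPM or less in control skin.

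Epidermal differentiation genes had 1 increase among 35 tested (background 0.543%), Alox12b, a lipoxygenase of the skin barrier (1.28, adjusted p = 0.047). With it, 21 were higher at an unadjusted p under 0.05, the median was 1.06, and 34 of 35 were above 0 beside 51.2% of all genes. Without radiated replicate 1, 9 passed, with DESeq2 16, with no filter 7 and in the fit over all 35 libraries 4, and none did without radiated replicate 3, radiated replicate 4, sham replicate 2 or sham replicate 3, or with libraries scaled by their total count. Of all genes, 164 rose without radiated replicate 1, 634 in DESeq2, 202 with no filter and 470 over all 35 libraries. Flg (filaggrin), which bundles keratin in the cornified layer, had 2.75 against sham (unadjusted p = 0.00253) and 2.38 against control (unadjusted p = 0.0014), and passed in neither in edgeR. Against sham it passed in DESeq2 (adjusted p = 5.31e-05), with no filter (0.036) and without radiated replicate 1 (0.0285). The scores of epidermal differentiation genes were 5.67, 5.46 and 5.62 in sham and 5.73, 7.67, 7.47 and 6.48 in radiated skin. Radiated replicates 2 and 3, high in stress genes, were highest here too. Krt14, the basal keratin, was at 2208, 3100 and 1410 CPM in sham and at 1584, 7717, 3481 and 2745 CPM in radiated skin and did not pass (0.79, adjusted p = 0.473). The 15 basal keratinocyte and hemidesmosome genes had none past the threshold in edgeR and 1 higher in DESeq2, with a median of 0.44 and 5 higher at an unadjusted p under 0.05.

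Targets of p53 were mostly above sham, with 1 of 23 past the threshold in the main edgeR fit (background 0.543%). DESeq2 called 4 higher and 1 lower, beside 634 and 604 of all genes. In the fit over all 35 libraries 3 were higher, beside 470 of all genes, and without sham replicate 1 or sham replicate 2 none passed. Pmaip1 (Noxa), which promotes apoptosis, was at 10.5, 13.3 and 15.5 CPM in sham and at 25.1, 69.4, 30.7 and 63.2 CPM in radiated skin (1.83 ± 0.38, adjusted p = 0.0472). Cdkn1a (p21), which arrests the cell cycle, was at 316, 477 and 356 CPM in sham and at 301, 587, 650 and 972 CPM in radiated skin. The groups overlapped for Cdkn1a, since radiated replicate 1 was below all sham libraries (0.70 ± 0.35, adjusted p = 0.352). Zmat3, a p53-induced RNA binding protein, was at 122, 118 and 112 CPM in sham and at 128, 251, 177 and 293 CPM in radiated skin, with no overlap (0.85, adjusted p = 0.157). It passed in 2 of 13 alternatives. In all, 12 of 23 were higher at an unadjusted p under 0.05 beside 8.68% of all genes, with a median of 0.68. Radiated against control had a median of 0.50, with 9 higher at an unadjusted p under 0.05 (background 7.05%) and none past the threshold. Control against sham had a median of 0.24 and 3 of 23 past the threshold, beside 4.92% of all genes. Pmaip1 (0.96, adjusted p = 0.0489) and Ccng1, a cyclin G (1.09, adjusted p = 0.0428), rose there, and Ckap2, a protein of the spindle (-1.21, adjusted p = 0.0457), fell. Zmat3 there was at 0.07 ± 0.12. The call of Pmaip1 was lost without radiated replicate 2, 3 or 4 and without each sham replicate.

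The remaining cell types had few genes past the threshold against sham. Collagen and matrix genes had 0 of 33 in edgeR and 2 higher in DESeq2, with a median of 0.59 and 8 higher at an unadjusted p under 0.05. Of all genes, DESeq2 called 634 higher and 604 lower, and 8.68% were higher at an unadjusted p under 0.05. These figures also stand behind the like counts below. Col1a1, the main fibrillar collagen, was at 2700, 4400 and 1940 CPM in sham and at 7583, 2272, 8691 and 7499 CPM in radiated skin, where replicate 2 was alone within the sham range (1.10, adjusted p = 0.264). Sebaceous gland genes had 0 of 25 in edgeR and 6 lower in DESeq2, with a median of -0.92. At an unadjusted p under 0.05, 12 were lower (background 7.89%), among them the melanocortin receptor Mc5r (-1.78) and the fatty acid elongase Elovl6 (-1.97). Adipocyte genes had 0 of 20 in edgeR, 2 higher in DESeq2 and 4 higher at an unadjusted p under 0.05, with Adipoq (adiponectin) at 0.62 (adjusted p = 0.418). Muscle genes had 2 of 30 that rose (background 0.543%), the sarcomere protein Tcap (1.32) and the myosin Myh2 (1.26), with Acta1, skeletal actin, at 0.74 (adjusted p = 0.438). Against control skin, fat and muscle genes had none past the threshold. All 20 fat genes and 26 of 30 muscle genes had fold changes below 0, with medians of -0.82 and -1.05 and 15 of 20 and 22 of 30 lower at an unadjusted p under 0.05 (background 7.04%). The calls of Tcap and Myh2 were lost in a fit over all 35 libraries and without radiated replicate 1, 3 or 4 or sham replicate 2 or 3, and that of Myh2 also without radiated replicate 2. Control against sham had 12 adipocyte, 17 muscle, 7 blood vessel and 3 collagen and matrix genes that rose (background 3.28%). Sebaceous gland genes had 7 that fell there (background 1.65%) and 1 that rose. The medians there were 0.95 for blood vessel, 0.56 for collagen and matrix and -0.82 for sebaceous gland genes. Radiated against control gave -0.42, 0.11 and -0.26 for these 3 lists, with none past the threshold. The fat score was 4.41 to 5.31 in sham, 4.57 to 5.76 in radiated and 5.87 to 6.71 in control skin. The muscle score was 7.08 to 8.22 in sham, 7.60 to 8.48 in radiated and 8.64 to 9.21 in control skin, and the part of these tissues in the other results was not tested. Blood vessel, Schwann cell, oxidative phosphorylation and ribosomal protein genes had none past the threshold in the main edgeR fit, with medians of 0.51, 0.49, 0.05 and 0.00. Of these lists, DESeq2 called 1 blood vessel and 2 Schwann cell genes, and at an unadjusted p under 0.05 there were 3 of 18, 2 of 15, 1 of 78 and 2 of 78 higher, in the same order. The fit over all 35 libraries had 3 collagen, 2 Schwann cell, 1 adipocyte and 1 sebaceous gland gene higher. It had 3 sebaceous gland genes and 1 ribosomal protein gene lower, beside 470 higher and 754 lower of all genes. Without sham replicate 1, 1 Schwann cell gene was higher.

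**Figure D5:**
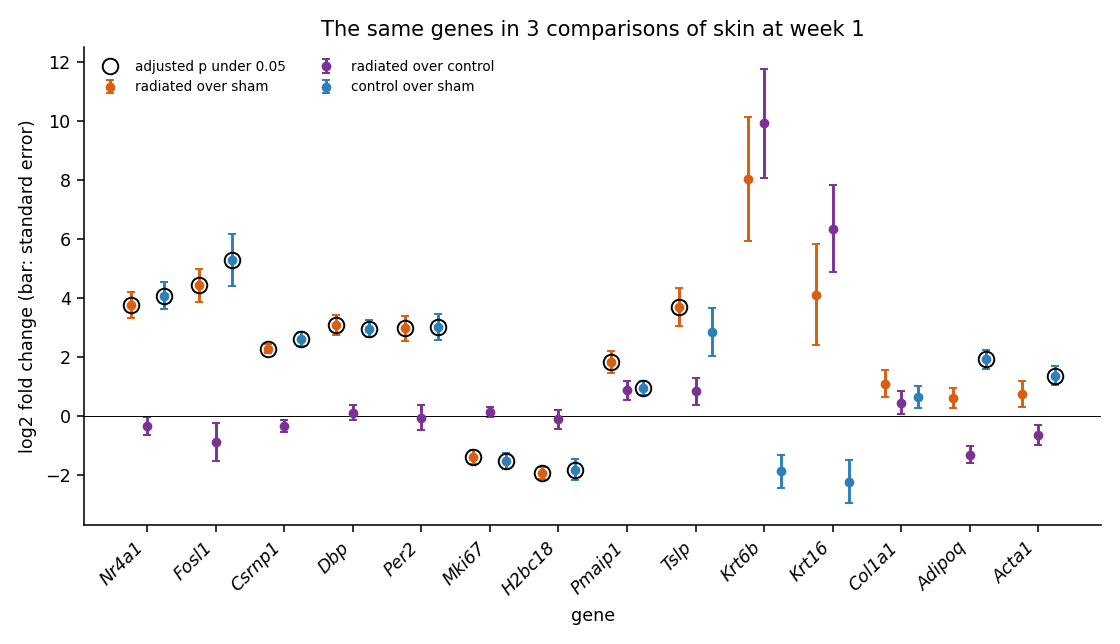
Log2 fold change with its standard error for 14 genes (horizontal axis) in radiated over sham, radiated over control and control over sham skin at week 1, with open circles at an adjusted p under 0.05. Nr4a1, Csrnp1, Dbp, Per2, Mki67 and H2bc18 lie away from 0 in both comparisons with sham and nearer 0 between radiated and control skin, where Fosl1 is at -0.86 (SE 0.64), while Krt6b (9.91) and Krt16 (6.34) lie far above 0 between radiated and control skin with wide errors.

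Between radiated and control skin of week 1, 0 of 17578 genes passed in edgeR's test, with 2477 (14.1%) at an unadjusted p under 0.05, while DESeq2 passed 423. Without radiated replicate 1, 232 genes passed, 102 higher and 130 lower, and 1 passed without control replicate 1 or control replicate 3. Control against sham had 881 of 17893 genes past the threshold (4.92%), 586 higher and 295 lower, with 0 without sham replicate 2 or 3, 11 to 24 without control replicate 2, 3 or 4, 1557 without control replicate 1 and 1803 without sham replicate 1. Genes that passed against sham and had the smallest p against control among the increases, chosen after their values were seen, were Ccdc88b, a regulator of lymphocyte activation, and the neuronal scaffold Anks1b. Ccdc88b was at 5.21, 4.12 and 4.80 CPM in sham, at 11.3, 12.1, 14.5 and 11.0 CPM in radiated skin and at 5.72, 5.37, 6.20 and 4.79 CPM in control skin (radiated against control 1.15 ± 0.18, adjusted p = 0.171). Every radiated library was above all 4 control libraries for Ccdc88b, which its choice by p against control favours, and 3.49% of all genes were separated in that way. Mgmt, which repairs alkylated guanine, rose by 2.04 against sham (adjusted p = 0.039), from 1.52 to 3.00 CPM to 4.48 to 12.2 CPM, and was at 2.88 to 6.41 CPM in control skin. The calls of Ccdc88b, Anks1b and Mgmt against sham were lost without radiated replicate 3 or 4 or sham replicate 2 or 3, and that of Anks1b also without radiated replicate 2 or sham replicate 1.

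In irradiated skin of later weeks, hair genes remained low at week 2 and were higher in single mice at weeks 3 and 4. Control skin of these weeks was low as well. Mean inner root sheath scores at weeks 2 to 4 were 1.749, 1.042 and 0.2908 in control skin. They were 0.2495, 0.9489 and 2.945 in radiated skin, beside 7.73 in sham. Single control libraries reached 5.774 at week 2 and 5.038 at week 3. Mean shaft keratin scores were -0.6646, -0.6915 and -1.498 in control skin. Those of radiated skin were -1.784, -1.354 and 0.1137, beside 5.758 in sham. Krt71 in irradiated skin had a mean of 1.12 CPM at week 2, 49.6 CPM at week 3 and 354 CPM at week 4. At week 4 the 4 libraries were at 67.8, 1.47, 1334 and 13.0 CPM. Mki67 went from 95.7 CPM at week 1 and 73.1 CPM at week 2 to 152 CPM at week 3 and 237 CPM at week 4, beside 245 CPM in sham. Il1b, at 4.38 CPM at week 1, reached a mean of 133.5 CPM at week 3 and 81.4 CPM at week 4, beside 3.18 to 6.11 CPM in control skin of weeks 1 to 4. These later values are descriptions and were not tested here.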

How the data were processed

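Bulk RNA was sequenced from 35 skin samples, 3 sham and 4 for each week of radiated and control skin. The table deposited by the authors holds estimated counts per gene, not scaled between samples. They were made with Trim Galore 0.6.7 and kallisto 0.46.2, with mm10 named as the build, per the submitters' processing notes. The labels' protocols name RNeasy for extraction and Kallisto and DESeq2 for the analysis, while the transcriptome release is not given in the sources used here. The estimated counts were rounded to whole numbers. Reads shared by close copies are split by estimation, so values within a gene family are uncertain. Of 36106 genes, 7638 were at 0 in all samples, 35866 IDs matched GENCODE M21, and some listed symbols such as Krt85 were not analysed here. A gene that the naming rule allows is not reported here.

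Each comparison (3 sham, 4 radiated and 4 control samples at week 1) was fitted on its own libraries with edgeR 4.0.16 in R 4.3.3 (filterByExpr, TMM scaling, quasi-likelihood test, two-sided, Benjamini-Hochberg adjustment over all genes tested, threshold 0.05). Fold changes are log2, given with standard errors (SE). CPM used TMM over all 35 libraries, log2 CPM a prior count of 2, and folds against libraries at 0 a floor of 3 counts per library. Intervals (95%) and floors cover counting error only. The test was checked on simulated data with known changes. Replicate numbers are those of the sample titles, while the descriptions number the same 3 sham samples from 2 to 4. Genes were named by a rule: past the threshold, a mean of at least 5 CPM and no overlap of the groups, then the 10 largest increases, the 10 largest decreases and the 5 smallest p in each direction, together with members of the gene lists and 9 genes given whatever their values (Cdkn1a, Mki67, Krt6a, Krt14, Krt71, Col1a1, Adipoq, Acta1 and S100a8). Members and lists were chosen with earlier results of these data known. Alternatives were DESeq2 1.42.0, size factors, total-count scaling, no filter, a fit over all libraries, a replicate block and leaving out each replicate.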

Additional observations from a re-analysis of the deposited data

Results flagged for a closer look

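In groups of 4, a library was marked where its gap to the nearest other, divided by the range, was above Dixon's 95% critical value. This was so in 10 of 113 values tested, and chance gives about 1 in 20. Values are log2 CPM, and scores are means of log2 CPM over a list.

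Radiated replicate 2 was lowest for Col1a1, at 11.15 beside 12.87 to 13.09, for the Langerhans and dendritic cell score, at 3.306 beside 4.076 to 4.137, and for the adipocyte score, at 4.571 beside 5.683 to 5.76. Radiated replicate 3 was highest for Gm11562, at -2.896 beside -3.46 in the others, which had no counts.

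Control replicate 1 was lowest for the scores of basal keratinocyte and hemidesmosome genes, at 8.645 beside 9.13 to 9.156, and of epidermal differentiation genes, at 5.512 beside 5.85 to 5.908. The same library was highest for the scores of follicle stem cell genes, at 6.298 beside 5.913 to 5.97, and of red blood cell genes, at 3.211 beside 2.512 to 2.629. Control replicate 3 was highest for the score of NRF2 antioxidant genes, at 4.275 beside 4.04 to 4.059, and lowest for that of Y-linked genes, at 0.8492 beside 1.433 to 1.497. The labels call the mice female, and all 7 sham and radiated week 1 libraries held counts of Y-linked genes. Kdm5d was at 9.67 to 21.5 CPM and Uty at 6.64 to 18.1 CPM, while Ddx3y was at 2.48 CPM or less and Eif2s3y at 0.652 CPM or less, and the source of these counts was not tested.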

How the results depend on the processing

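For radiated against sham skin, size factors gave 312 genes past the threshold and total-count scaling 340, beside 319. No filter gave 561 (202 higher, 359 lower), DESeq2 1238 (634 and 604, of which 315 were among the 319, so that 51.2% were higher in place of 31%), and the fit over all 35 libraries 1224 (470 and 754, 276 shared). Leaving out 1 replicate gave 1 to 543 genes, with 1 to 237 higher and 0 to 429 lower. For radiated against control skin, which had 0, DESeq2 gave 423 (150 higher, 273 lower), the fit over all libraries 23 (22 and 1), and leaving out 1 replicate 0 to 232 (0 to 102 higher, 0 to 130 lower). For control against sham skin, DESeq2 gave 2974 (1735 and 1239), the fit over all libraries 567 lower in place of 295, and leaving out 1 replicate 0 to 1803 (0 to 1004 higher, 0 to 799 lower). Total-count scaling gave 361 higher and 469 lower there, 43.5% higher in place of 66.5%. It moved the median of all genes by 0.136 (radiated against control) and -0.149 (control against sham), and by under 0.1 in radiated against sham. The cause of these changes was not tested. Samples with the same replicate number did not deviate together in every pair (mean correlation 0.00679 for radiated against sham, 0.0706 for radiated against control and -0.259 for control against sham), and 2 of 4 radiated libraries correlated best with the control of their number. With the replicate block, radiated against sham had 126 genes (31 higher, 95 lower, 109 shared with the 319), radiated against control 0 (2570 at an unadjusted p under 0.05) and control against sham 0 (2607). Of 131 followed calls, 61 were lost with this block, which the lists of lost calls above leave out. It left 35 of 39 Krtap genes, 11 of 15 shaft keratins and 1 of 13 inner root sheath genes past the threshold. The same block left 1 of 21 hair matrix regulators, 0 of 28 proliferation, 6 of 22 immediate early and 4 of 18 clock genes. No followed gene of radiated against sham changed direction in any alternative. Depth was 17362853 to 23210933 counts a library, and genes of a few counts after radiation have folds that depend on the prior count.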
